A study of Mus musculus with 8 samples.

Results

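Acta2, Vwf and Ptprb are 3 genes of the vessel wall, and they were followed here in right hippocampus of mice that lack the T-type calcium channel Cav3.2 and of wild-type mice, with and without fear training. They were taken as every probe with values that the probe annotation gives to one of these symbols. This gave 4 probes: mMC021908 and mMR027770 for Acta2, mMC004189 for Vwf and mMC011463 for Ptprb, out of 16383 probes with values for 11011 gene symbols. Of 4 probes annotated to Acta2, 2 had values, and Vwf and Ptprb had 1 probe each. The genes were chosen on their intensities in these same arrays, so their own differences are a description and carry no test.

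RNA was measured on 8 one-colour arrays in 4 groups of 2 arrays. The groups were Cav3.2 knockout mice after trace fear conditioning (KTR), naïve knockout mice (KNR), trained wild-type mice (WTR) and naïve wild-type mice (WNR). The labels give all as C57BL/6 males of 6 to 8 weeks. The methods of the study name the wild type as C57BL/6J and say of the knockout line only that it was bred onto C57BL/6. The knockout was homozygous and present in every cell of the body, and each group was made from the pooled right hippocampi of 3 mice. In trace fear conditioning a tone is followed, after an empty interval, by a foot shock, and trained mice were killed straight after a later test of their memory of the chamber. Whether the duplicate arrays of a group hold separate pools of mice is not given in the sources used here, so every p-value measures only how duplicate arrays differ, which may be a technical spread. The wild-type mice are described both as littermates and as purchased animals.

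Acta2 encodes smooth muscle alpha-actin, the contractile actin of the smooth muscle cells that ring arteries and arterioles. Its paralog Acta1 encodes the nearly identical actin of skeletal muscle. Vwf encodes von Willebrand factor, a very large glycoprotein that endothelial cells store in Weibel-Palade bodies and release to capture platelets. Ptprb encodes VE-PTP, a receptor tyrosine phosphatase of endothelial cells that removes phosphate from the angiopoietin receptor Tie2 (gene Tek) and acts on VE-cadherin (Cdh5), the adhesion molecule of endothelial junctions. In whole hippocampus all of these transcripts come from a minority of cells, and fewer cells of a type and less RNA per cell cannot be told apart.

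The promoter of Acta2 is shown because smooth muscle and actin genes are set beside it below. Many of these genes are switched on by serum response factor, which binds the CArG box, a run of A and T bases between CC and GG. The 150 bases before the annotated start of Acta2 lie at chr19:34255374-34255523 on the minus strand of GRCm38.p6 in RefSeq. Capitals mark sites of CC, 6 bases of which at least 5 are A or T, and GG.

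Acta2 promoter: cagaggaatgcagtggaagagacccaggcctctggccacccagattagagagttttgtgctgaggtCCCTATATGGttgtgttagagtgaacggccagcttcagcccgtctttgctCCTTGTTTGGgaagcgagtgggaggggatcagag

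The first of these sites lay 84 to 75 bases before the start and the second 34 to 25 bases before it, and neither has A or T at all 6 inner bases. The search covered the 250 bases before the start on both strands, where overlapping sites would count separately. Of 32851 promoter windows of that length, 8.59% held at least 1 such site and 0.67% at least 2, and 1.47% held a site with 6 of 6 inner bases A or T. Among relatives of Acta2 in the contractile apparatus, Acta1 held 3 sites, the cardiac actin gene Actc1 held 4 and the myosin light chain gene Myl9 held 2. The vinculin gene Vcl held 1. No such site was found in the windows of Tpm1, Tpm2, Cald1, Des, Cnn1 and Mylk. A match is a description of the letters and not a binding site.

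The arrays had nearly the same median intensity, 484.7 to 485.4, because the authors made their distributions equal, and 5.76% to 5.90% of the values of an array lay under 100. Duplicate arrays correlated at 0.988 to 0.991. Principal component 1 took up 44.2% of the variance and ran from -41.2 in KTR replicate 2 to 38.1 in KNR replicate 1, with the other KTR array at -21.1 and the other KNR array at 13.1, and component 2 took up 22.2% and set apart the 2 WNR arrays, at -27.7 and -25.1. The probe of Cacna1h, which encodes Cav3.2, read 1036 and 1440 in KTR and 1551 and 1489 in KNR, against 2084 and 2340 in WTR and 2575 and 2385 in WNR, so it was lower but not at background in both knockout groups. Whether that probe lies in the deleted part is not given in the sources used here.

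The dimmer Acta2 probe, mMC021908, was lowest in trained knockout and highest in naïve knockout hippocampus. It read 113.8 and 88.6 in KTR and 397.1 and 338.9 in KNR, against 187.2 and 175.8 in WTR and 186.8 and 202.0 in WNR. Values are intensities, which are proportional to brightness and cannot be compared between probes. The knockout groups stood on either side of the wild-type groups, and the 2 wild-type groups overlapped each other.

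The brighter Acta2 probe, mMR027770, gave the same order of the knockout groups. It read 979.0 and 929.8 in KTR and 1495.4 and 1571.3 in KNR, against 1178.0 and 1204.9 in WTR and 987.3 and 1052.7 in WNR. Here trained wild-type lay above naïve wild-type mice, without overlap, and KTR lay only just below WNR. In order of level the groups were KNR, WTR, WNR and KTR for this probe. For mMC021908 they were KNR, WNR, WTR and KTR, of which WNR and WTR did not differ beyond the spread of their duplicates.

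**Figure D1:**
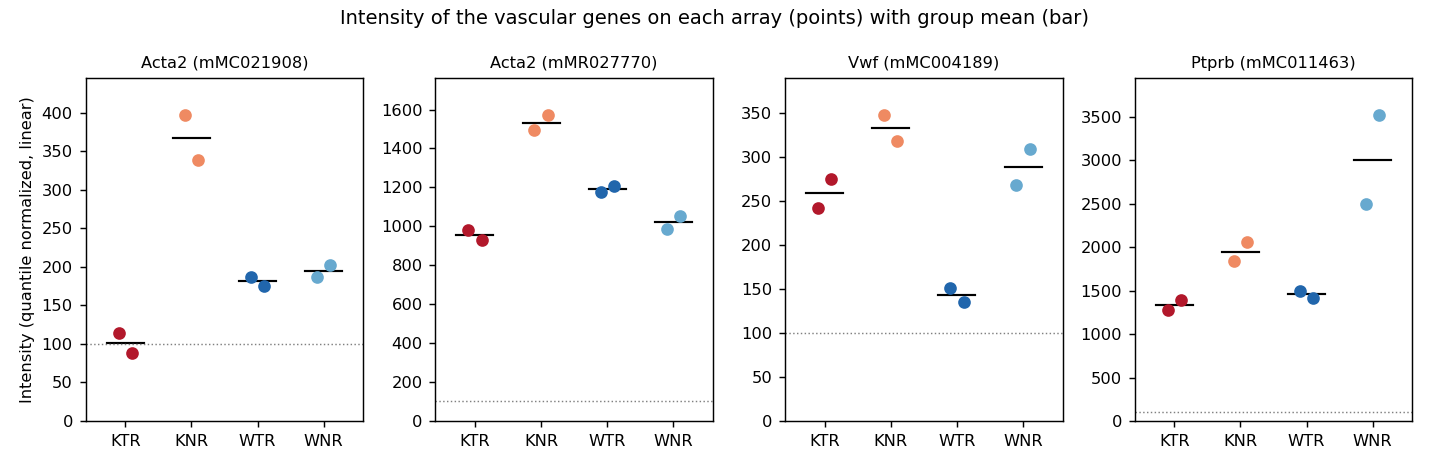
Intensity (quantile normalized, linear scale, y axis) of the 4 probes of Acta2, Vwf and Ptprb in the KTR, KNR, WTR and WNR groups (x axis). Points are the 2 arrays of a group, black bars are group means, and the dotted line is the floor of 100. Both Acta2 probes are highest in KNR and lowest in KTR, Vwf is lowest in WTR, and Ptprb is highest in WNR, where its duplicates read 2496 and 3522.

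On the log2 scale, with values under 100 set to 100, Acta2 was higher in KNR than in WNR by 0.92 on mMC021908 (SE 0.12) and by 0.59 on mMR027770 (SE 0.10), which is 1.89-fold and 1.50-fold. These SEs come from 1 fit of all 8 arrays. After training the sign was the opposite, with KTR minus WTR at -0.77 on mMC021908 and -0.32 on mMR027770. One KTR array of mMC021908 lay under the floor, so that difference was at least 1.70-fold, beside 1.25-fold on mMR027770.

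Within the knockout, trained minus naïve (KTR minus KNR) was -1.78 on mMC021908, at least 3.44-fold lower, and -0.68 on mMR027770, 1.61-fold lower. Within wild type, WTR minus WNR was -0.10 on mMC021908 (SE 0.12) and 0.22 on mMR027770 (SE 0.10), so the 2 probes differed in sign there and only mMR027770 had groups that did not overlap. The interaction, which is the training difference in knockout minus that in wild type, was -1.68 (SE 0.18) on mMC021908 and -0.91 (SE 0.14) on mMR027770.

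The 2 Acta2 probes correlated at r = 0.90 over the 8 arrays, which share their groups and the principal component above. The correlation of Acta2 with that component was 0.91 for mMC021908 and 0.73 for mMR027770. KNR replicate 1 and KTR replicate 2, the ends of the component, were also the highest and lowest arrays of mMC021908. Without both of them KTR minus KNR was -1.57 on mMC021908 and -0.68 on mMR027770, and KNR minus WNR was 0.80 and 0.62 on these probes. The sequences of the probes were not used here, and cross-hybridization between Acta2 and Acta1 cannot be checked without them.

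Vwf was lowest in trained wild-type hippocampus. It read 241.9 and 275.0 in KTR and 347.0 and 317.9 in KNR, against 151.2 and 134.7 in WTR and 268.2 and 308.7 in WNR. Both WTR arrays were well under the other 6. In order of level the groups were KNR, WNR, KTR and WTR. KTR and WNR overlapped, and KNR and WNR were separated by less than the difference between the duplicates of either.

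Accordingly the difference of Vwf was 0.85 for KTR minus WTR (SE 0.13), 1.81-fold, and 0.21 for KNR minus WNR, 1.15-fold. The second of these moved with single arrays, to 0.11 when WNR replicate 1 was left out and 0.31 when WNR replicate 2 was. For training it was -0.36 for KTR minus KNR, 1.29-fold lower, and -1.01 for WTR minus WNR, 2.02-fold lower. The interaction was 0.65 (SE 0.18). Vwf followed the principal components only loosely, with r = 0.30 for the first and -0.03 for the second.

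Ptprb was highest in naïve wild-type hippocampus, and its duplicates there were far apart. It read 1279 and 1388 in KTR and 1837 and 2063 in KNR, against 1500 and 1419 in WTR and 2496 and 3522 in WNR. In order of level the groups were WNR, KNR, WTR and KTR. No groups overlapped, but KTR and WTR were nearly adjacent, at means of 1333 and 1460.

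The difference of Ptprb was -1.02 for WTR minus WNR (SE 0.17), 2.03-fold lower, and -0.55 for KTR minus KNR, 1.46-fold lower. For genotype it was -0.61 for KNR minus WNR, 1.52-fold lower, and -0.13 for KTR minus WTR, which was -0.07 without KTR replicate 1 and -0.19 without KTR replicate 2. Without WNR replicate 2, the brightest array, WTR minus WNR was -0.77 and KNR minus WNR was -0.36, and without WNR replicate 1 they were -1.27 and -0.86. The interaction was 0.48 (SE 0.24). Ptprb followed the second principal component, on which the WNR arrays stand apart, at r = -0.73, and their part in its difference was not tested.

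**Figure D2:**
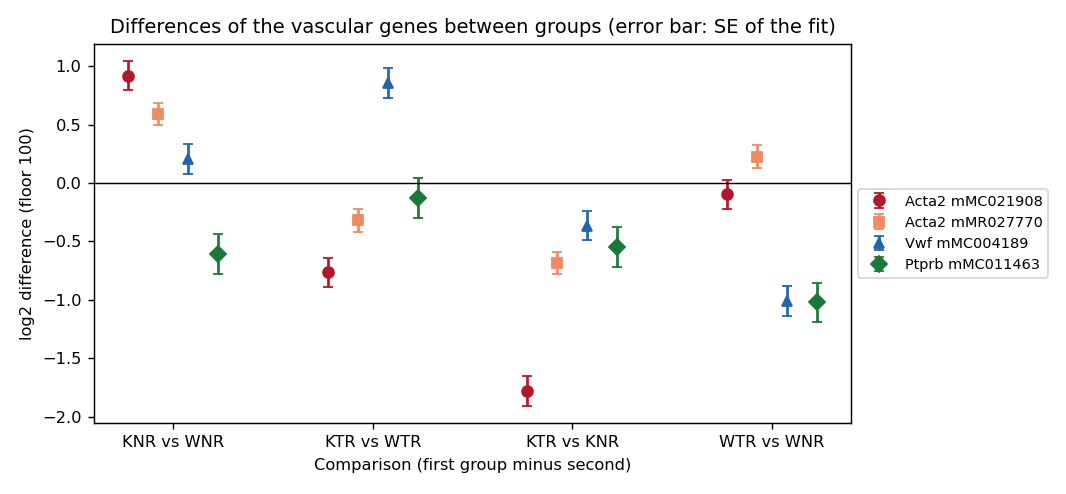
Difference of log2 intensity (y axis, floor of 100) of each probe of Acta2, Vwf and Ptprb in 4 comparisons (x axis, first group minus second), with the SE of the fit of all 8 arrays as error bar. The Acta2 probes are positive for KNR vs WNR and negative for KTR vs WTR and KTR vs KNR, and Vwf and Ptprb are near -1.01 and -1.02 for WTR vs WNR.

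The 3 genes therefore had 3 different patterns. Vwf and Ptprb, both endothelial, were lower in trained than in naïve mice of either genotype, by a like amount in wild type. Their genotype differences were opposite in sign, although that of Vwf in naïve mice and that of Ptprb in trained mice were small. Acta2 was lower with training in the knockout on both probes, and its probes differed in sign in wild type. Correlations between different genes over the 8 arrays ran from 0.07, between Ptprb and Acta2 mMR027770, to 0.51, between Vwf and Ptprb. The comparisons share groups, so these patterns are not independent of each other.

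The share of the members that did not overlap has to be read against the whole array. Groups did not overlap for 4 of 4 probes in KNR vs WNR, KTR vs WTR and KTR vs KNR, and for 3 of 4 in WTR vs WNR. Over all 16204 probes tested, the groups did not overlap for 58.4%, 55.1%, 67.5% and 56.5% in these comparisons. The limma test with Benjamini-Hochberg adjustment at 0.05, in the fit of all 8 arrays, called 8.02% of all probes in KNR vs WNR, 2.0% in KTR vs WTR, 15.9% in KTR vs KNR and 6.25% in WTR vs WNR, and 5.18% for the interaction. By direction, 4.7% of all probes were called higher and 3.33% lower in KNR vs WNR, 0.741% and 1.26% in KTR vs WTR, 6.6% and 9.29% in KTR vs KNR, 3.25% and 2.99% in WTR vs WNR and 1.83% and 3.35% for the interaction. Fits of the 4 arrays of a comparison alone called 0, 1, 0 and 0 probes (0.00634% for KTR vs WTR), with 4323, 3404, 5393 and 3935 probes at an unadjusted p under 0.05.

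Other genes of the vessel wall were taken from lists of endothelial, smooth muscle and pericyte markers, 63 genes without the members, of which 45 had values. In KNR vs WNR 6 of the 45 rose and 2 fell, and in KTR vs WTR 0 rose and 2 fell. In KTR vs KNR 2 rose and 7 fell, and in WTR vs WNR 5 rose and 3 fell. Their median differences were 0.10, -0.12, -0.15 and 0.10 in these comparisons, against -0.00, 0.01, -0.01 and -0.01 over all genes. All calls are by limma in the fit of all 8 arrays, and in the fits of 4 arrays 0 of the 45 passed in any of the comparisons, with 18, 11, 19 and 15 at an unadjusted p under 0.05. Without KNR replicate 1 no call remained among the 45 in any comparison. With any other single array left out, 0 to 6 were called in KNR vs WNR, 0 to 7 in KTR vs KNR and 0 in KTR vs WTR and in WTR vs WNR.

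Some smooth muscle genes rose in naïve knockout mice, where Acta2 was also higher. Of 11 with values, 4 rose and 0 fell in KNR vs WNR, beside 4.7% of all probes that rose, and the other 7 did not pass. Tpm2, which encodes beta-tropomyosin of the thin filament, read 376.8 and 360.8 in KNR, against 210.4 and 202.0 in WNR, a difference of 0.84 (SE 0.14, limma adjusted p = 0.025). Cald1, which encodes caldesmon, an actin-binding regulator of contraction, read 213.3 and 170.3 in KNR against 90.8 and 92.6 in WNR. As WNR lay at the floor, its difference was at least 0.93 (limma adjusted p = 0.033). The second probe of Cald1 gave 0.10 and did not pass.

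Myl9, the regulatory light chain of smooth muscle myosin, rose by 0.65 (limma adjusted p = 0.036), with 1929 and 1705 in KNR against 1070 and 1250 in WNR. Tpm1, alpha-tropomyosin, rose by 0.50 (limma adjusted p = 0.038). Myh11, Cnn1 and Des, also of the smooth muscle list, did not pass. Myh11, smooth muscle myosin heavy chain, was at 0.20 (SE 0.33), with 437.5 and 568.5 in KNR against 629.1 and 299.9 in WNR. Cnn1, calponin, was at -0.24, and Des, desmin, was at 0.04. Mylk, the kinase of Myl9, was at 0.02 on its brightest probe, and another of its probes gave 0.76 (limma adjusted p = 0.022). Tagln has no value here.

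The 4 calls were 3 without KTR replicate 1, 2 without KTR replicate 2 and 0 without any one of the other 6 arrays, the WTR arrays included. The 4 differences kept their sign in each of these fits, and Tpm2 stayed between 0.81 and 0.87. Some genes of fibroblasts of the meninges moved with them. Of 15 such genes 6 rose and 1 fell in KNR vs WNR, beside 4.7% and 3.33% of all probes. Their summed intensity was 54593 to 54626 in KNR and 49324 to 51707 in WTR, against 40425 to 41337 in WNR. Most of each sum was 1 gene, Ptgds. It read 33147 and 32095 in KNR and 28057 and 29548 in WTR, against 22594 and 24651 in WNR. Mgp, a matrix protein that vascular smooth muscle also makes, rose by 0.94 (limma adjusted p = 0.016), and Col1a2 rose by 0.80. The call of Mgp was lost without any one KNR or WNR array and that of Col1a2 without any array. In KTR vs KNR 0 of the 15 rose and 3 fell, beside 6.6% and 9.29% of all probes. The summed intensity of the 15 was 45980 to 46356 in KTR, where Ptgds read 25771 and 25262. Col1a2 did not fall with Acta2, since it read 540.1 and 543.9 in KTR against 585.0 and 491.8 in KNR. The part of these cells in the Acta2 difference was not tested.

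**Figure D3:**
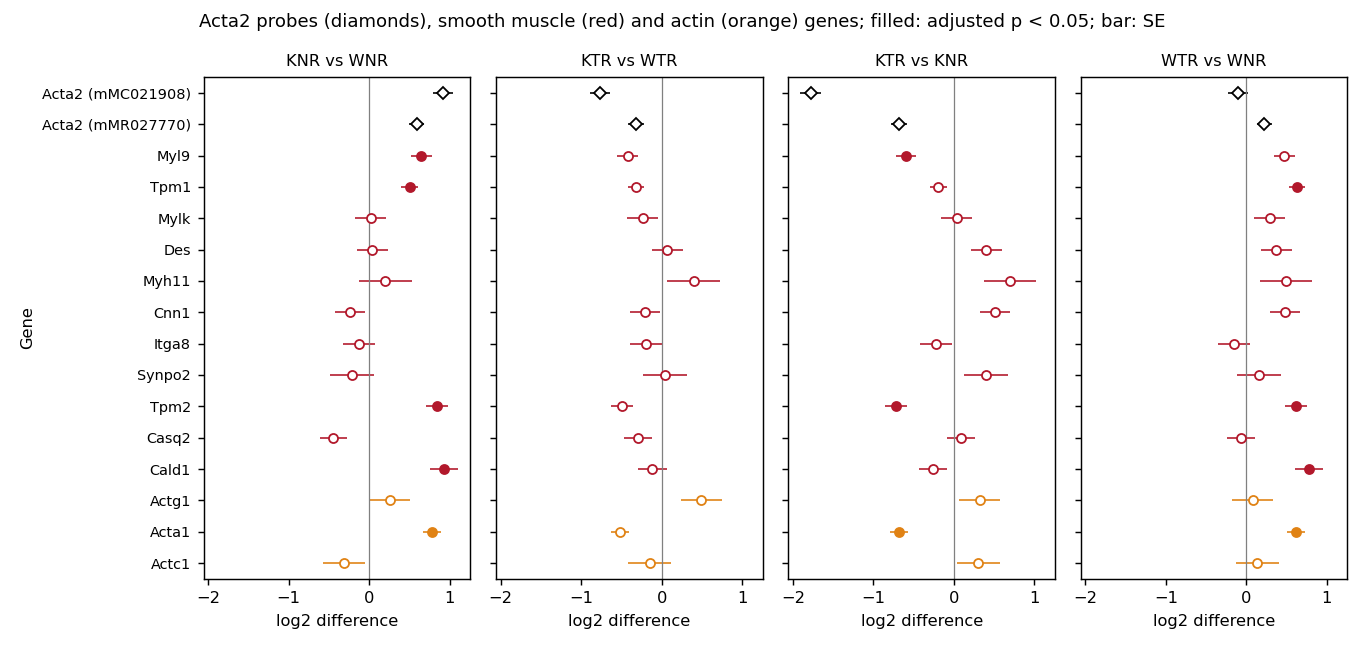
Difference of log2 intensity (x axis) in 4 comparisons (panels, first group minus second) for the Acta2 probes (diamonds, not tested) and for smooth muscle (red) and actin family (orange) genes, each sorted by mean intensity from top to bottom. Filled circles passed 0.05 in limma and bars are the SE. In KNR vs WNR, Myl9, Tpm1, Tpm2, Cald1 and Acta1 are filled and positive, and in KTR vs KNR, Myl9, Tpm2 and Acta1 are filled and negative.

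In trained mice no smooth muscle gene passed in KTR vs WTR. Tpm2 was at -0.49 there (limma adjusted p = 0.098) and Myl9 at -0.42 (limma adjusted p = 0.12). Myh11 was at 0.40 (SE 0.33), on the other side from Acta2, and 3 of the 11 were positive in this comparison. In KTR vs KNR 0 rose and 2 fell of 11, beside 9.29% of all probes that fell. Tpm2 read 255.2 and 196.6 in KTR against 376.8 and 360.8 in KNR, a fall by 0.72 (limma adjusted p = 0.026), and Myl9 read 1133 and 1273 in KTR against 1929 and 1705 in KNR, a fall by 0.59 (limma adjusted p = 0.032). Tpm2 did not pass without KTR replicate 2, KNR replicate 1 or KNR replicate 2, and Myl9 passed in only 2 of the 8 fits with an array left out. Myh11 was at 0.69 and Cnn1 at 0.51, on the other side from Acta2, and neither passed.

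In WTR vs WNR 3 smooth muscle genes rose and 0 fell, beside 3.25% of all probes that rose. These were Cald1, by at least 0.78 since WNR lay at the floor, Tpm1 by 0.63 (limma adjusted p = 0.030) and Tpm2 by 0.61 (limma adjusted p = 0.048). Each of these 3 genes lost its call on leaving out any one of the 8 arrays. The second probe of Cald1 gave -0.24 and did not pass. A dimmer probe of Mylk gave 0.52 here and -0.83 for the interaction (limma adjusted p = 0.040 for both). Its brightest probe gave 0.29 and -0.25 and did not pass. The difference of Acta2 was small here on both probes. The interaction was negative for Myl9 at -1.07, Tpm1 at -0.82 and Tpm2 at -1.33, with limma adjusted p of 0.038, 0.039 and 0.032, and 0 of the 11 were positive and passed. Leaving out single arrays left 0 of these, except that 1 was called without KTR replicate 1.

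Of the other actins, Acta1 was also highest in KNR. It read 144.0 and 127.4 in KTR and 225.9 and 209.0 in KNR, against 195.8 and 192.2 in WTR and 121.2 and 132.3 in WNR. It rose by 0.78 in KNR vs WNR (limma adjusted p = 0.022) and by 0.62 in WTR vs WNR (limma adjusted p = 0.033), and fell by 0.68 in KTR vs KNR (limma adjusted p = 0.022). The first call was lost without any one KNR, WTR or WNR array, the second on leaving out any, and the third without KTR replicate 2 or KNR replicate 1. Acta1 is uncertain, since its probe may also bind the Acta2 transcript. Actg1, cytoplasmic gamma-actin, and Actc1 did not pass in any comparison, and Actb and Actg2 have no value here.

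Genes of the serum response factor and transforming growth factor beta pathways, which drive smooth muscle genes, were called in either direction. Of 14 with values 1 rose and 1 fell in KNR vs WNR, beside 8.02% of all probes called, and 1 rose and 3 fell in KTR vs KNR, beside 15.9%, while 0 passed in KTR vs WTR and in WTR vs WNR. The gene that rose in KNR vs WNR was Myl9, and the one that fell was Tgfbr1, a receptor of transforming growth factor beta, by 0.53 (limma adjusted p = 0.042), a call lost without any one array. In KTR vs KNR Vcl, vinculin of cell-matrix junctions, fell by 1.16 (limma adjusted p = 0.035) and Tgfbr2 by 0.35. Klf4, a repressor of smooth muscle genes, rose by 1.21 there (limma adjusted p = 0.027), with 1713 and 2154 in KTR against 641.9 and 1081 in KNR. Its 3 probes did not agree in sign, since the dimmest gave -0.68 and did not pass. Without KNR replicate 1 none of these calls in KTR vs KNR remained. Srf and Myocd have no value here.

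Endothelial genes did not share one direction with Vwf or with Ptprb. In WTR vs WNR, where both were about 2.0-fold lower, 3 of 24 endothelial genes fell and 2 rose, beside 2.99% of all probes that fell. Cd34, a sialomucin of endothelial and progenitor cells, read 2141 and 2120 in WTR against 3081 and 3089 in WNR, a fall by 0.53 (limma adjusted p = 0.031). Podxl, its relative podocalyxin, read 472.7 and 442.9 in WTR against 669.0 and 960.1 in WNR, a fall by 0.81 (limma adjusted p = 0.048), and Robo4, an endothelial guidance receptor, fell by 0.54 (limma adjusted p = 0.035).

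Like Vwf, Cd34 and Robo4 were lowest in WTR among the 4 groups. Podxl was highest in WNR replicate 2, as Ptprb was. Ramp2, the partner of the adrenomedullin receptor, rose by 0.74 in WTR vs WNR (limma adjusted p = 0.034) and Ly6a by 0.47. Cldn5, the tight junction protein of the blood-brain barrier, was at 0.34, Pecam1 at -0.25 and Cdh5 at 0.10, and none of these passed. A second, dimmer probe of Pecam1 fell by 0.89 (limma adjusted p = 0.025). Every endothelial call in WTR vs WNR was lost on leaving out any one of the 8 arrays. Choroid plexus genes moved in this comparison as well: 4 of 10 tested rose and 0 fell, beside 3.25% and 2.99% of all probes. The summed intensity of the 11 with values was 30550 to 37417 in WTR against 19094 to 19828 in WNR. Most of each sum was 1 gene, Ttr, with 26361 and 33147 in WTR against 16383 and 15543 in WNR. The part of choroid plexus in the Vwf and Ptprb differences was not tested.

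In the knockout, 2 endothelial genes rose and 4 fell of 24 in KTR vs KNR, beside 6.6% and 9.29% of all probes. Flt1, a receptor of vascular endothelial growth factor, read 326.2 and 281.9 in KTR against 676.4 and 649.2 in KNR, a fall by 1.13 (limma adjusted p = 0.014). Mfsd2a, the lipid transporter of brain endothelium, fell by 0.93 and Slc2a1, its glucose transporter, by 0.85 (limma adjusted p = 0.035 and 0.030), and Ly6a fell by 0.38. Pecam1, an adhesion molecule of endothelial junctions, rose by 0.70 (limma adjusted p = 0.045) and Fli1, an endothelial transcription factor, by 0.95 (limma adjusted p = 0.028). The second probe of Pecam1 was at -0.23 and did not pass. Without KNR replicate 1 or without KTR replicate 2 none of the 6 passed. Of 10 choroid plexus genes tested 4 rose and 1 fell here, beside 6.6% and 9.29% of all probes. The summed intensity of the 11 with values was 24326 to 26778 in KTR against 22437 to 22957 in KNR. Most of each sum was Ttr, with 20596 and 22954 in KTR against 19518 and 20040 in KNR. Of 11 genes of microglia and macrophages 0 rose and 3 fell, beside the same shares of all probes. Their summed intensity was 9025 to 9489 in KTR against 9673 to 10569 in KNR. The part of these cells in the endothelial and member differences was not tested.

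Between genotypes, 2 endothelial genes rose and 2 fell in KNR vs WNR, beside 4.7% and 3.33% of all probes. Egfl7, a secreted endothelial protein, rose by 0.52 and Ly6a by 0.71, while Slco1c1, a thyroid hormone transporter of brain vessels, fell by 0.55 and Pecam1 by 0.84 (limma adjusted p = 0.033, 0.023, 0.044 and 0.041). The second probe of Pecam1 fell as well, by 0.72 (limma adjusted p = 0.025). With 1 array left out, 3 of them were called without KTR replicate 1 and 3 without KTR replicate 2, and 0 without any other. In KTR vs WTR 0 rose and 1 fell, beside 0.741% and 1.26% of all probes. The gene that fell was Flt1, with 326.2 and 281.9 in KTR against 492.5 and 587.7 in WTR, a fall by 0.83 (limma adjusted p = 0.040). Its call was lost on leaving out any one array.

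Of 10 pericyte genes 0 passed in KNR vs WNR and in WTR vs WNR. Rgs5, a regulator of G protein signalling and a leading pericyte gene, read 237.3 and 177.0 in KTR, against 433.0 and 394.3 in KNR and 375.1 and 456.8 in WTR. It fell by 1.01 in KTR vs KNR (limma adjusted p = 0.023) and by 1.01 in KTR vs WTR (limma adjusted p = 0.046). The first of these calls was lost without KTR replicate 2 or KNR replicate 1, and the second on leaving out any array. Pdgfrb, the receptor that recruits pericytes, was at -0.59 and -0.29 in these comparisons and did not pass. Mcam was at -0.39 and -0.31. On the other side from Rgs5, Abcc9 was at 0.52 and 0.24 and Notch3 at 0.27 and 0.61. None of these passed. A second, dimmer probe of Abcc9 was at -0.07 and -0.35 and did not pass either. Of the 10 genes, 2 were positive in KTR vs KNR and 4 in KTR vs WTR. Vtn stayed within 0.13 of zero in all 4 comparisons.

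**Figure D4:**
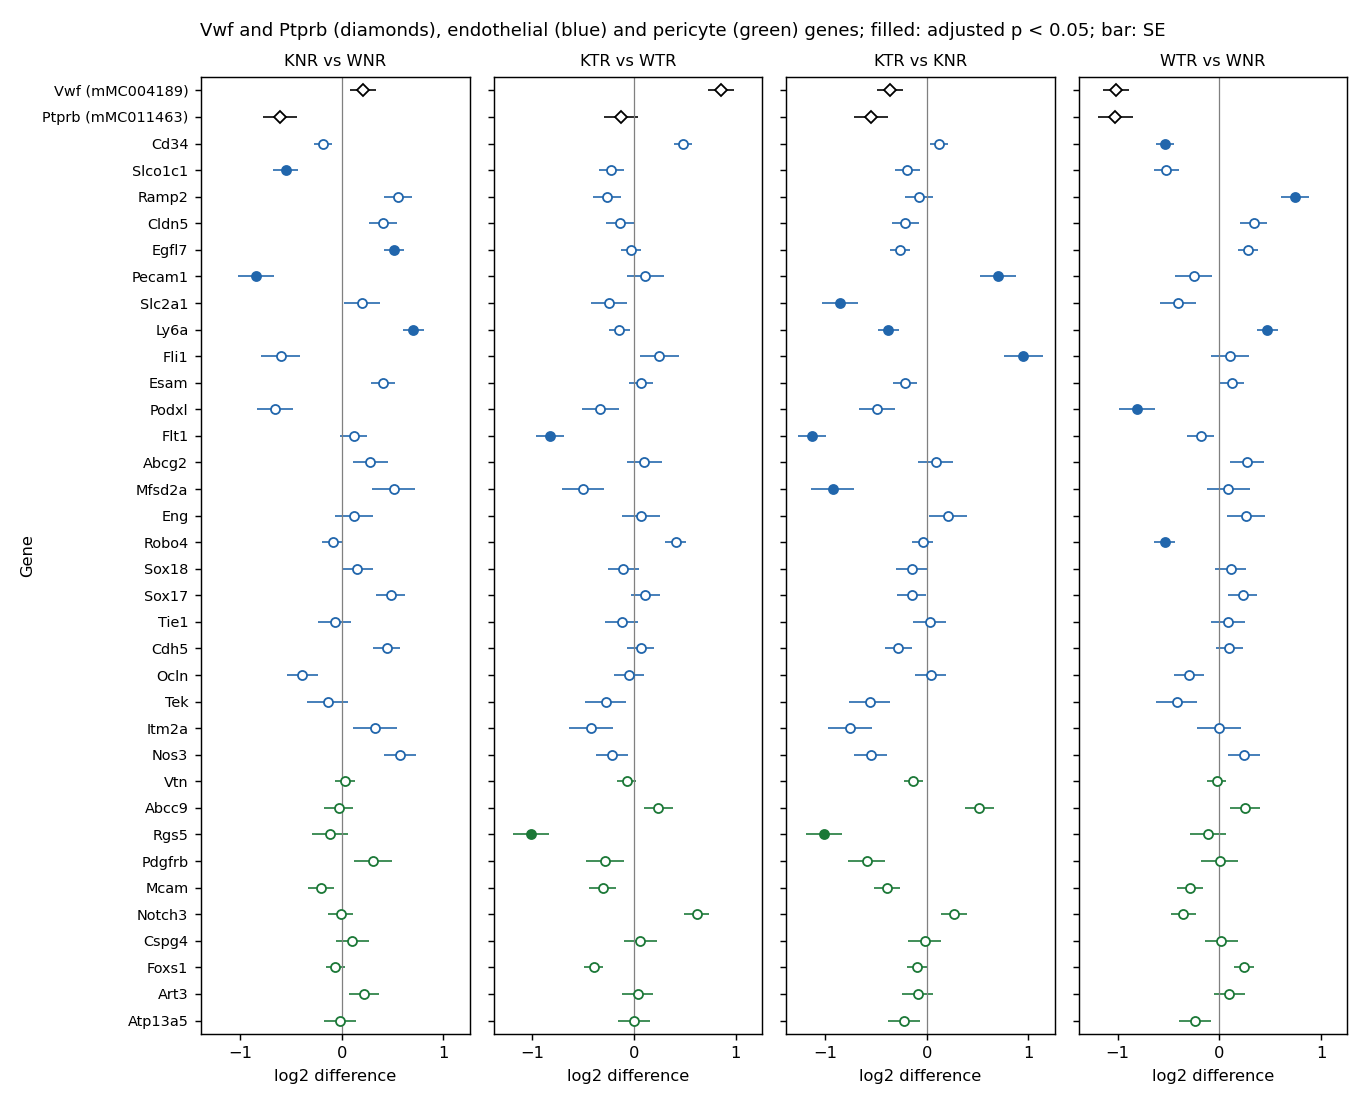
Difference of log2 intensity (x axis) in 4 comparisons (panels, first group minus second) for Vwf and Ptprb (diamonds, not tested) and for endothelial (blue) and pericyte (green) genes, each sorted by mean intensity from top to bottom. Filled circles passed 0.05 in limma and bars are the SE. In WTR vs WNR, Cd34, Podxl and Robo4 are filled on the side of Vwf and Ptprb, and Ramp2 and Ly6a are filled on the other side.

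A list of genes set around VE-PTP, Tie2 and VE-cadherin held Plvap and Jup among the genes that rose. Of its 8 genes with values, 1 rose in each of KNR vs WNR, WTR vs WNR and KTR vs KNR. This stands beside 4.7%, 3.25% and 6.6% of all probes, and 0 of the 8 fell in any comparison. Plvap, a diaphragm protein of fenestrated endothelium, read 671.1 and 648.4 in KNR and 655.0 and 631.2 in WTR, against 457.4 and 452.2 in WNR. It rose by 0.54 in KNR vs WNR (limma adjusted p = 0.027) and by 0.50 in WTR vs WNR (limma adjusted p = 0.034). The second of these calls was lost on leaving out any array and the first without any one KNR, WTR or WNR array. Jup, plakoglobin of cell junctions, rose by 1.60 in KTR vs KNR (limma adjusted p = 0.027), with 7642 and 9282 in KTR against 1984 and 3903 in KNR, and did not pass without KTR replicate 1, KTR replicate 2 or KNR replicate 1.

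Tek, the Tie2 receptor itself, was dim, with 138.2 and 106.3 in KTR and 202.5 and 157.4 in KNR, against 132.9 and 162.2 in WTR and 175.5 and 219.8 in WNR. Its group means came in the order of those of Ptprb, but the genotypes overlapped in both training states and no difference of Tek passed. Tie1, the co-receptor, read between 171.1 and 231.4 on the 8 arrays, its groups overlapped in each of the 4 comparisons, and it did not pass. The ligands Angpt1 and Angpt2 have no value here.

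Among 14 other receptor tyrosine phosphatases, 0 passed in comparisons other than KNR vs WNR. There 2 fell, as Ptprb did, beside 3.33% of all probes that fell. These were Ptprz1, the phosphatase of astrocytes and their precursors, by 0.50 (limma adjusted p = 0.040) and Ptprk by 0.42 (limma adjusted p = 0.049), the second with a fall by 0.53 on its other probe. Both of these calls were lost on leaving out any one of the 8 arrays. Of the group closest in structure to Ptprb, Ptpro and Ptprq had values and did not pass, and Ptprh and Ptprj have none here.

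Of 13 genes of the storage and binding of von Willebrand factor 0 passed in WTR vs WNR, beside 2.99% of all probes that fell and 3.25% that rose. Edn1, endothelin, which is released from Weibel-Palade bodies, read 184.7 and 150.5 in KNR against 96.4 and 94.1 in WNR at the floor, and rose by at least 0.74 (limma adjusted p = 0.032). Cd63, a membrane protein of these bodies and of lysosomes in most cells, read 2607 and 3181 in KTR, against 4452 and 4445 in KNR and 4475 and 5152 in WTR. It fell by 0.74 in KTR vs WTR and by 0.63 in KTR vs KNR (limma adjusted p = 0.046 and 0.029). In KTR vs KNR, F8, the coagulation factor that von Willebrand factor carries in blood, rose by 0.90, Gp9, a subunit of the platelet receptor for it, rose by 0.49, and Ece1, which activates endothelin, fell by 0.49. Without KNR replicate 1 none of these calls remained, and those in KNR vs WNR and KTR vs WTR were lost on leaving out at least 7 of the 8 arrays.

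Blood left in the vessels was read from few genes. Of 11 erythroid genes 2 had values and the globin genes had none. Alas2, of haem synthesis, read 484.7 and 525.1 in WTR against 718.8 and 818.9 in WNR, a fall by 0.60 (limma adjusted p = 0.042), while Slc4a1 was at -0.05. In KTR vs KNR Slc4a1, the anion exchanger of red cells, rose by 1.31 (limma adjusted p = 0.033). Alas2 went the other way there, with 613.7 and 726.5 in KTR against 799.0 and 749.9 in KNR, and did not pass. The Alas2 call in WTR vs WNR was lost on leaving out any array and that of Slc4a1 on leaving out 7 of the 8. Of 8 genes of platelets, which also store von Willebrand factor, 4 had values and 0 passed in WTR vs WNR, with a summed intensity of 749.7 to 846.9 in WTR against 676.2 to 873.0 in WNR. Gp9 was the 1 platelet gene that passed in KTR vs KNR (limma adjusted p = 0.046), with 175.2 and 186.2 in KTR against 114.9 and 144.6 in KNR, and its call was lost on leaving out 7 of the 8 arrays. The part of red cells and platelets in the Vwf difference was not tested.

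The genes whose pattern over the 8 arrays was most like that of each probe came from 2328 candidates, with a mean above 200 and an SD of log2 of at least 0.3. Correlations are a description, since the arrays share groups and components. For Acta2 mMC021908 they were Bnip1 (r = 0.97), which encodes a vesicle fusion protein of the endoplasmic reticulum, then Tmem79, Hmgn3, C1qtnf4 and Top1mt, down to 0.94. Bnip1 read 404.6 and 402.6 in KTR and 788.4 and 700.7 in KNR, against 540.6 and 522.1 in WTR and 470.0 and 500.6 in WNR. For mMR027770 they were Gabarapl2 (r = 0.97), an autophagy gene, then Arrb2, Ly86, Sf3b5 and Bnip1 (all 0.96), so that Bnip1 stood in both lists.

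For Vwf they were Coro1c (r = 0.95), an actin-binding coronin, then Rims2, Zfp692, Ezh1 and Ulk4, down to 0.92. Coro1c read 1222 and 1119 in KTR and 1555 and 1425 in KNR, against 951.3 and 774.5 in WTR and 1377 and 1465 in WNR. For Ptprb they were Tsc2 (r = 0.98), the tuberous sclerosis gene tuberin, then Unc13b, Adra2c, Arfip1 and AU040320, down to 0.96. Tsc2 read 1567 and 1650 in KTR and 1957 and 2083 in KNR, against 1677 and 1802 in WTR and 2837 and 3618 in WNR. Its WNR duplicates were also far apart, while those of Unc13b were closer, at 1783 and 1951. None of the genes named for likeness belongs to the endothelial, smooth muscle or pericyte lists. Some genes of these lists, such as Cdh5, Tek, Tie1 and Cald1, were too dim to be candidates. How many list genes were among the candidates was not counted. Their absence therefore does not show whether the members follow other vascular genes.

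**Figure D5:**
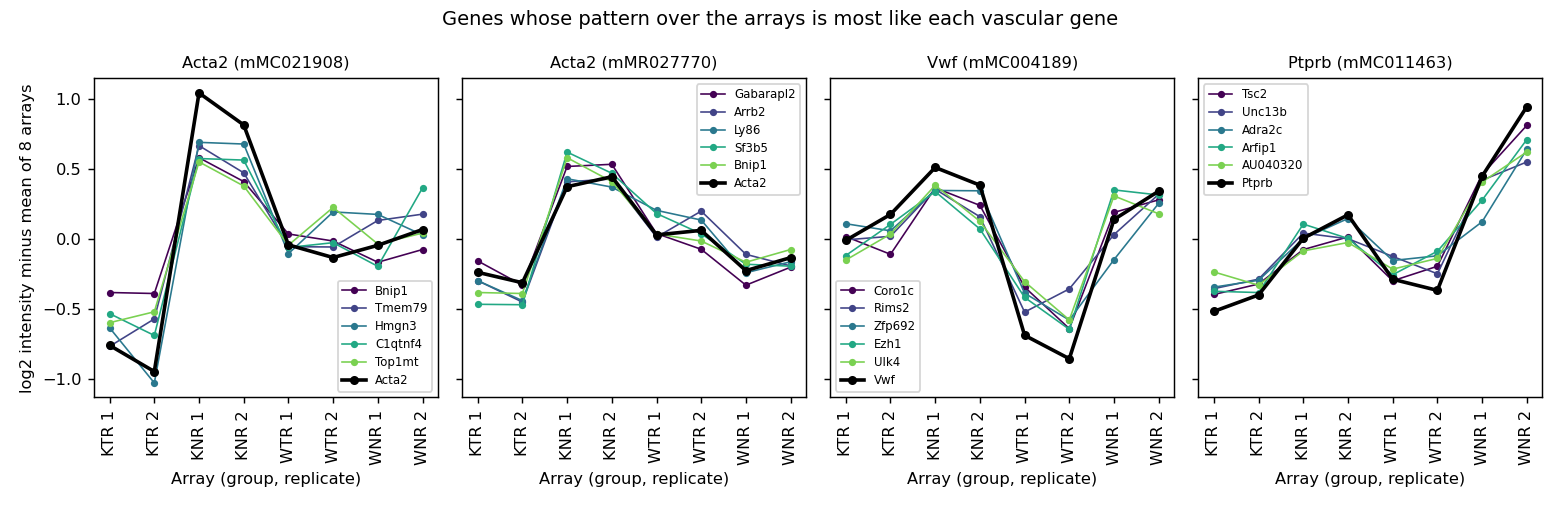
Log2 intensity minus its mean over the 8 arrays (y axis) for each probe of Acta2, Vwf and Ptprb (black) and the 5 genes of highest correlation with it (colours), by array (x axis, group and replicate). Lines only join the points of a gene. Beside Ptprb, the genes Adra2c, Arfip1 and Tsc2 also have a wide gap between the WNR arrays, which is narrower in Unc13b and AU040320. The genes beside Vwf share its low level on the WTR arrays.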

How the data were processed

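RNA of right hippocampi (3 mice pooled per group) was hybridized by the authors to a one-colour Phalanx Mouse Whole Genome OneArray. The deposited intensity values are linear and are described as thresholded and quantile normalized by the authors. The floor of 100 that the study names is not seen in them, since 5.76% to 5.90% of the values of an array lay under 100. How background was corrected is not given in the sources used here. The table held 29922 probes, 13539 of them without any value, and 13072 of the 16383 with values had 1 gene symbol. A floor of 100 was set before taking log2. Probes above 100 on at least 2 of the 8 arrays were tested with limma 3.58.1 (R 4.3.3) in 1 fit with a mean per group and Benjamini-Hochberg adjustment over all probes at 0.05. The methods of the study set the floor before normalization and used SAM, which was not rerun. The fit was tested on simulated data with noise drawn separately for each probe and array. Those data lack the principal component that these arrays share, so they cannot show how the fit behaves with it.

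A gene is read from its probe of highest mean. Means with SD are of linear values, and folds are of log2 means. Named were the members, the 5 genes most like each member probe, the 5 brightest genes of the endothelial, smooth muscle and pericyte lists, the actin genes, Tek, Tie1 and their ligands, the nearest relatives of Ptprb, up to 4 called genes per list and comparison, and Cacna1h. Second probes of these genes, and unpassed list genes, were named after their values were seen. The members and lists were chosen with earlier results of these data known. The number of arrays limits the precision. Alternatives were other floors, filters and normalizations, pairwise fits, a replicate block, the mean of the probes of a gene, and leaving out arrays. Promoter sequences are from RefSeq (GRCm38.p6).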

Additional observations from a re-analysis of the deposited data

Results flagged for a closer look

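Opposite directions in both genotypes or both training states were flagged for Acta2 and were not tested, since the gene was chosen with its values known. On mMC021908 every KNR array lay above every WNR array (log2 difference 0.92) and every KTR array below every WTR array (-0.77). On mMR027770 the same held for KNR vs WNR (0.59) and KTR vs WTR (-0.32), and training differences were also opposite, at -0.68 for KTR vs KNR and 0.22 for WTR vs WNR.

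For other genes of the lists the test of the difference itself, the interaction of genotype and training in limma, passed 0.05 after adjustment. It was negative for Tpm2 (-1.33), Acta1 (-1.30), Myl9 (-1.07), Cd63 (-0.95), Flt1 (-0.95), Ly6a (-0.85) and Tpm1 (-0.82), and positive for Cd34 (0.66). Over all probes the interaction called 5.18%. With a replicate block 1 probe of all was called. Leaving out single arrays left between 1 and 96 probes, and without both KNR replicate 1 and KTR replicate 2 there were 0.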

How the results depend on the processing

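With the mean of both probes, Acta2 was at 0.75 in KNR vs WNR, -0.54 in KTR vs WTR, 0.063 in WTR vs WNR (against -0.10 and 0.22 on the single probes), -1.23 in KTR vs KNR and -1.30 for the interaction. Leaving out arrays gave Acta2 mMC021908 -1.90 to -1.57 in KTR vs KNR and -1.80 to -1.48 for the interaction. It gave Ptprb -0.86 to -0.36 in KNR vs WNR, -1.27 to -0.77 in WTR vs WNR and 0.23 to 0.72 for the interaction.

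Among the 45 vascular list genes, 8 were called in KNR vs WNR, 2 in KTR vs WTR, 8 in WTR vs WNR, 9 in KTR vs KNR and 6 for the interaction. Pairwise fits called 0 in each of the 4 comparisons. Leaving out arrays gave 0 to 6, 0 to 0, 0 to 0, 0 to 7 and 0 to 1. Without a floor there was 1 in KTR vs WTR and 5 in WTR vs WNR, with a floor of 50 there were 5 in WTR vs WNR, and with the mean of probes there was 1 in KTR vs WTR. Leaving out KNR replicate 1 and KTR replicate 2 together was chosen after seeing the data.

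The replicate block gave 0 calls of vascular list genes for both genotype comparisons, WTR vs WNR and the interaction, and 7 in KTR vs KNR. The numbers mark no shared animals. Deviations of arrays with the same number correlated at 0.44 between KTR and KNR and at 0.27 between WTR and WNR. Between groups of different genotype they correlated at -0.38 to -0.24, so the sign went with genotype. Whether the numbers mark a shared step of the work is not given in the sources used here. Over all probes the block called 5 in KNR vs WNR against 1300 without it, 63 against 324 in KTR vs WTR, 0 against 1012 in WTR vs WNR and 1442 against 2575 in KTR vs KNR. A filter at 200 on 4 arrays called 539 in KTR vs WTR, the mean of probes 167, and no filter 217. Of 53 calls of single list genes, 53 kept their call after a second quantile normalization or median centring, 42 lost it under the block, and 35 to 53 lost it with an array left out. None reversed.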
